A study of Homo sapiens with 35 samples.

Results

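APLNR, APLN and APELA, the apelin receptor and its 2 peptide ligands, were followed through the induction of definitive endoderm and mesoderm from H1, an established line of human embryonic stem cells. The members were chosen by name, and they are 3 of the 16103 genes of the bulk table and 3 of the 33539 features of the single-cell matrices. All 3 were found in both kinds of data. The series holds 35 samples, of which 32 are bulk RNA-seq samples in 16 groups and 3 are single-cell libraries. The untreated pair at 24 h was not analysed here, which left 30 bulk libraries in 15 groups of 2.

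APLNR, also called APJ, is a G protein-coupled receptor that signals mainly through inhibitory G proteins. APLN encodes apelin, a secreted peptide best known from blood vessels and the heart. APELA encodes the peptide named Elabela or Toddler, which is made by human pluripotent stem cells and which in zebrafish embryos acts through the receptor on mesendoderm cells during gastrulation. In embryos the receptor is typical of nascent mesoderm and mesendoderm, so its timing can be read beside that of its ligands.

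Unsorted cells were collected at 6 h and 24 h. At both times groups received CHIR99021 (CHIR), a GSK3 inhibitor that activates Wnt signalling, at 3 µM, either alone, with Activin A (AA) at 100 ng/ml, or with a compound known by the code name BRD or JNJ. BRD was also given without CHIR, and an untreated group was taken at 6 h. At 72 h cells sorted as definitive endoderm came from 4 arms, which had CHIR on the first day with AA, BRD, JNJ or BRD plus an addition named LoAA, and the same agents without CHIR afterwards. The labels used here give no dose for BRD, JNJ or LoAA. Single-cell libraries were made from 36 h cells, called primitive streak by their source label, and from 72 h endoderm, both on the AA protocol, and from 72 h cells in STEMdiff Mesoderm Induction medium. All samples came from 1 cell line, and nothing in the labels says whether the 2 libraries of a group were separate cultures, so the p-values measure only the spread between these libraries.

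Bulk libraries held 4.57 to 49.5 M counts. The sample titles carry numbers beginning with 33 at 6 h, 38 at 24 h and 46 for BRD alone and all 72 h libraries. Time in the other groups, and BRD alone against other 6 h or 24 h groups, therefore cannot be told apart from whatever these numbers mark. BRD alone carried 46 at both 6 h and 24 h, so its own change over time does not cross the numbers. Genes with no counts in 1 library of a group and 50 or more in its partner numbered 112 to 298 in the 4 groups of the 38 numbers and 9 to 42 elsewhere. All 8 definitive endoderm markers were detected in every arm at 72 h, at levels that differed between arms. SOX17, a defining factor, had 391.5 counts per M (CPM) in the AA arm and 231 to 242 CPM in the compound arms. The sum of the 8 was 4998 to 5575 CPM with AA and 778 to 961 CPM in the compound arms.

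The 2 ligands are short open reading frames, shown here because the peptides are what the receptor sees. By the GENCODE annotation on GRCh38, APLNR (ENSG00000134817) lies on the minus strand at chr11:57233577-57237314, with its longest coding transcript in 1 exon and a coding sequence of 1143 bases. APLN (ENSG00000171388) lies on the minus strand at chrX:129645259-129654937, and APELA (ENSG00000248329) on the plus strand at chr4:164877004-164898965. Both ligands have 3 exons in the longest coding transcript, and no other annotated gene overlapped any of the 3. The coding sequences follow, with start and stop codons in capitals:
APLN (234 bases, 77 codons before the stop): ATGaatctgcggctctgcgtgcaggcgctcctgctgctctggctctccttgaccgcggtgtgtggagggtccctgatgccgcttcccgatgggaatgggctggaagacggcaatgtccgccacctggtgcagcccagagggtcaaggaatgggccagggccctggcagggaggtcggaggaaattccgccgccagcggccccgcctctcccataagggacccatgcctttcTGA
APELA (165 bases, 54 codons before the stop): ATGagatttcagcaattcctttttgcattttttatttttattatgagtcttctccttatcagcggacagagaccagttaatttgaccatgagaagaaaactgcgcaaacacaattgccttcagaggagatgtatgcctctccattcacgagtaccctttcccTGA

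The promoters of the ligands are printed because the ligands moved in opposite directions under AA. RefSeq on GRCh38.p14 gave promoters for APLN and APELA. Capitals mark matches, on either strand, to ACGTG (the core of a hypoxia response element), CTTTG (TCF and LEF core), CAGAC (SMAD element) or AATNCACA (FOXH1 element).
APLN, 250 bases before the start, chrX:129654957-129655206, minus strand: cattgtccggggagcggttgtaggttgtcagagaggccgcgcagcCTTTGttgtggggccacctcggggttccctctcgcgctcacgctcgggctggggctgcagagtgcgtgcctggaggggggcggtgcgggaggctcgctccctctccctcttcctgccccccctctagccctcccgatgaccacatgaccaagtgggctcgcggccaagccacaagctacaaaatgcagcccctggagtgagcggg
APELA, the 76 bases before any annotated transcript, chr4:164876928-164877003, plus strand: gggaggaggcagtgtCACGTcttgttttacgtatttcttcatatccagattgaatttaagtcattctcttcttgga
Over the full 250 bases before each RefSeq start, APLN held 1 CTTTG match and APELA held 1 CTTTG and 1 ACGTG match. Neither promoter held CAGAC or AATNCACA. For APELA the 250 bases run past the 76 shown into sequence that GENCODE annotates as the gene, and its CTTTG match lies there. Among 35116 promoters, 42.1% held CTTTG, 18.5% ACGTG and 2.89% AATNCACA, and 13345 promoters held CAGAC, so the matches found are common ones.

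APLNR, the receptor, was at 0 to 2 counts in each of the 12 libraries at 6 h and was too low there to test. At 24 h it stood at 116 and 91.0 CPM in the 2 AA+CHIR libraries. It was 9.001 and 6.26 CPM with CHIR alone, 10.0 and 6.57 CPM with BRD+CHIR, and 5.24 and 10.0 CPM with JNJ+CHIR. The AA+CHIR libraries lay above all others, and the groups without AA overlapped. With BRD and no CHIR the receptor had 0 and 1 counts. AA+CHIR exceeded CHIR by 3.76 ± 0.34 on the log2 scale (SE, n = 2 libraries a group), or 13.55-fold, with an edgeR quasi-likelihood adjusted p of 6.33e-06. All 3 members were called in this comparison, 2 higher and 1 lower, where 2.86% of the 15586 genes tested were called in either direction.

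**Figure D1:**
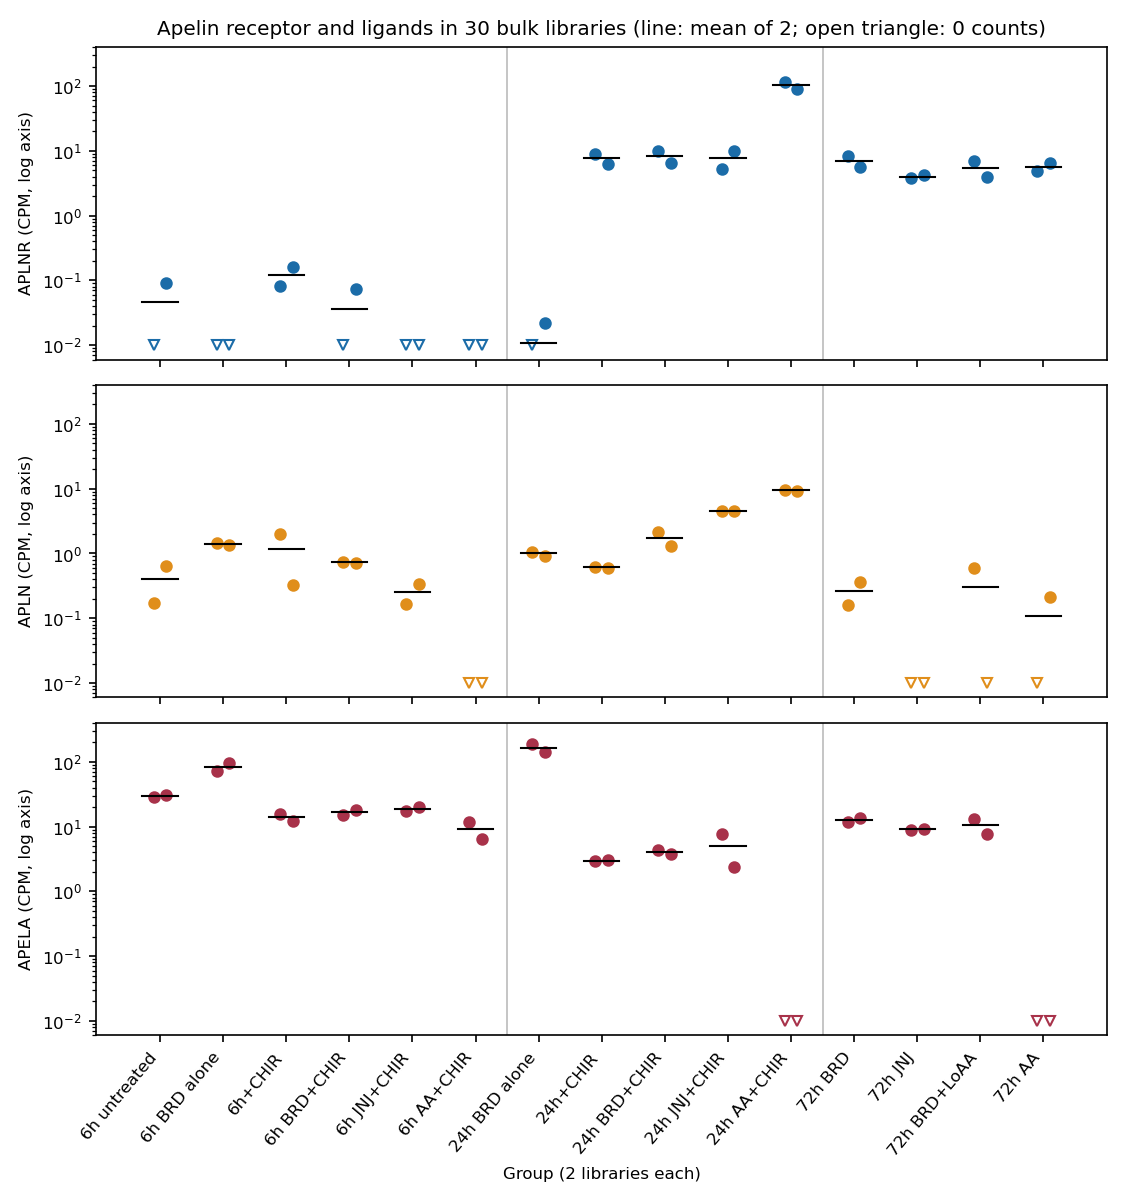
Levels of the receptor and its ligands in each of 30 bulk libraries, in CPM on a log axis, by group and time (grey lines part 6 h, 24 h and 72 h). Points are libraries, black lines are means of 2, and open triangles mark 0 counts. APLNR peaks in AA+CHIR at 24 h (116 and 91.0 CPM), where both APELA libraries are at 0.

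APLN, the apelin gene, was also highest with AA+CHIR at 24 h, and the groups below it stood in another order than for the receptor. It stood at 9.68 and 9.27 CPM with AA+CHIR, 4.50 and 4.57 CPM with JNJ+CHIR, 2.17 and 1.31 CPM with BRD+CHIR, and 0.620 and 0.604 CPM with CHIR. None of these 4 groups of 2 libraries overlapped another, but among their comparisons edgeR called only AA+CHIR against CHIR. The log2 difference from AA+CHIR was -1.06 with JNJ+CHIR (edgeR adjusted p = 0.477) and -2.43 with BRD+CHIR (0.12, though DESeq2 called it). BRD alone, at 1.07 and 0.930 CPM, lay between CHIR and BRD+CHIR. AA+CHIR exceeded CHIR by 3.94 ± 0.81 on the log2 scale, or 15.4-fold (edgeR adjusted p = 0.0114). This call was lost when any 1 of the 4 libraries compared was left out, with an edgeR adjusted p of 0.0648 to 0.0995 and differences of 3.91 to 3.97.

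APELA, the other ligand, had 0 counts in both AA+CHIR libraries at 24 h, out of 52.5 M counts. The CHIR libraries held 89 and 86 counts (2.90 and 3.06 CPM), so APELA was at least 53.9-fold lower with AA+CHIR than with CHIR, against a floor of 3 counts over the group (edgeR adjusted p = 0.000137). BRD+CHIR libraries held 4.38 and 3.73 CPM and JNJ+CHIR libraries 7.80 and 2.38 CPM. Relative to AA+CHIR that was at least 75.1-fold higher with BRD+CHIR (edgeR adjusted p = 5.62e-05, where 2.75% of genes were called) and at least 94.4-fold with JNJ+CHIR (1.97e-05, where 4.67% were called). These 3 calls were lost with limma-voom, which gave adjusted p-values of 0.13, 0.128 and 0.0723. With AA+CHIR 23 genes were listed at 0 in both libraries while at 2 CPM or more in CHIR, APELA among them, and 26 genes were so in the other direction. All of these comparisons share the AA+CHIR or the CHIR libraries.

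SOX2, a pluripotency factor, was lower with AA+CHIR at 24 h (7.54 CPM against 32.6 CPM), and the summed level of 8 pluripotency markers was 2807 to 2846 CPM against 3548 to 3676 CPM, with none of the markers at 0. The summed level of 9 primitive streak markers was 2802 to 2958 CPM with AA+CHIR and 1563 to 1624 CPM with CHIR. The part of these shifts in the levels of APELA and APLNR was not tested. In bulk RNA, fewer cells with a transcript and less of it per cell cannot be told apart.

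At 6 h APELA was the only member with more than 2 CPM in any library. It stood at 29.02 and 31.2 CPM in untreated cells, 15.9 and 12.3 CPM with CHIR, 17.1 and 19.9 CPM with JNJ+CHIR, 14.9 and 18.2 CPM with BRD+CHIR, and 11.9 and 6.47 CPM with AA+CHIR. The untreated libraries lay above those of every group given CHIR. CHIR lowered APELA by 1.10 ± 0.22 on the log2 scale relative to untreated cells (edgeR adjusted p = 0.00737), and 1 of the 2 members tested was called, against 2.96% of 14874 genes. The call was lost without the second CHIR library (edgeR adjusted p = 0.146), without the second untreated library (0.058) and in 1 fit over all 30 libraries (0.174).

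APELA was 0.62 ± 0.24 lower on the log2 scale with AA+CHIR than with CHIR at 6 h, which did not pass the test (edgeR adjusted p = 0.324). Of the 2 members tested 0 were called there, where 1.49% of genes were. APLN had 0 counts in both AA+CHIR libraries at 6 h and 24 and 4 counts with CHIR. The bound was at least 7.91-fold lower, and the edgeR adjusted p was 0.129 (DESeq2 0.0483). APLN in the other groups at 6 h was 0.164 to 1.46 CPM per library. JNJ+CHIR exceeded AA+CHIR in APELA by 1.02 ± 0.24 on the log2 scale (edgeR adjusted p = 0.0375, with 1.38% of genes called). Without the second AA+CHIR library the difference was 0.64 (0.233), and without either JNJ+CHIR library the adjusted p was 0.0923 or 0.174. BRD+CHIR exceeded AA+CHIR by 0.86 ± 0.24 (edgeR adjusted p = 0.0868, with 1.48% called), where DESeq2 gave 0.0323 and edgeR without the first AA+CHIR library 0.0186.

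**Figure D2:**
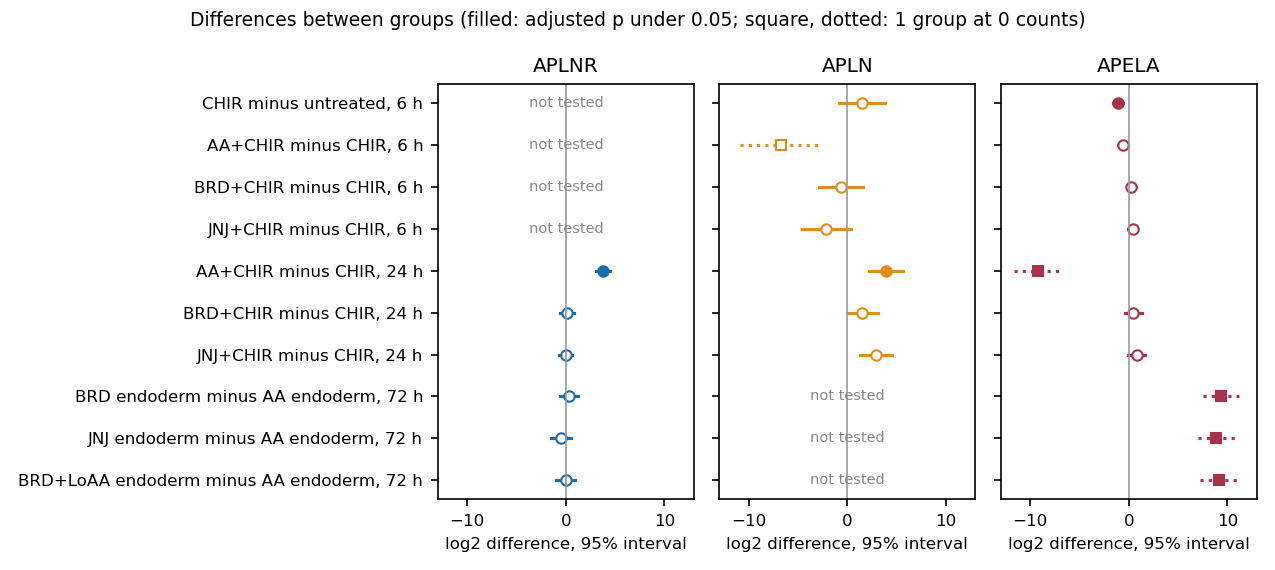
Log2 differences between groups with 95% intervals, by comparison (rows) and member (panels). Filled points passed an edgeR adjusted p of 0.05, squares with dotted lines mark comparisons in which 1 group had 0 counts and the fitted value is no estimate of size. APLNR was not tested at 6 h and APLN was not tested at 72 h, so only the 24 h rows could show all 3 members. Among the 24 h rows shown, only AA+CHIR against CHIR moved all 3 past the threshold.

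Whether the response to AA differed between the times was tested in 1 fit over 6 h and 24 h. For APLN the log2 effect of AA over CHIR was 11.3 ± 1.85 larger at 24 h than at 6 h (edgeR adjusted p = 0.00124), and for APELA it was lower by 8.15 ± 1.27 at 24 h (0.000871). Both rest on groups at 0 counts, so the sizes depend on the fit, and the APELA call was lost with limma-voom (adjusted p = 0.205). APLNR missed the threshold (7.99 ± 2.08, edgeR adjusted p = 0.0562; DESeq2 0.0109, and edgeR in 1 fit over all 30 libraries 0.0382), and 1.90% of 15717 genes were called. No member passed the same test for BRD or JNJ, where 0.00636% of genes were called for each. The JNJ effect on APLN was 5.01 ± 1.29 larger at 24 h (edgeR adjusted p = 0.231, DESeq2 0.0192).

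BRD and JNJ did not change any member past the threshold when added to CHIR. At 24 h the share of genes called was 0.00% for BRD+CHIR and 0.154% for JNJ+CHIR against CHIR. For BRD+CHIR edgeR called 0 genes, with 738 at an unadjusted p under 0.05, DESeq2 called 15 and limma-voom 0. At 6 h the share was 0.00% with BRD+CHIR, where 452 genes had an unadjusted p under 0.05, DESeq2 called 1 and limma-voom 0, and 0.0202% with JNJ+CHIR. For APLNR at 24 h the log2 difference from CHIR was 0.13 (95% interval -0.55 to 0.81) with BRD and -0.00 (-0.68 to 0.67) with JNJ. For APELA it was 0.45 (-0.40 to 1.31) with BRD and 0.78 (-0.05 to 1.60) with JNJ. For APLN it was 1.51 (-0.09 to 3.11) with BRD and 2.88 (1.23 to 4.53) with JNJ, where the edgeR adjusted p was 0.273 and DESeq2 gave 0.00984. The APLN libraries of both compound groups lay above both CHIR libraries. At 6 h the log2 difference in APELA was 0.24 (-0.23 to 0.71) with BRD and 0.40 (-0.07 to 0.87) with JNJ.

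The compounds were set against each other at 6 h, 24 h and 72 h, with p-values adjusted over all genes tested. No member differed past the threshold between BRD and JNJ, and the shares of genes called were 0.0202%, 0.180% and 0.00%. At 72 h edgeR called 0 genes, with 390 at an unadjusted p under 0.05, DESeq2 called 4 and limma-voom 0. At 24 h APLN was lower with BRD+CHIR than with JNJ+CHIR by 1.37 on the log2 scale (95% interval -2.92 to 0.19, edgeR adjusted p = 0.634). At 72 h the log2 difference of BRD from JNJ was 0.80 (-0.15 to 1.75) for APLNR and 0.48 (-0.27 to 1.24) for APELA, each with an edgeR adjusted p of 1. BRD+LoAA and BRD differed in APELA by -0.26 (-1.01 to 0.49), where edgeR called 0.00% of genes, with 740 at an unadjusted p under 0.05, DESeq2 called 5 and limma-voom 0. BRD+LoAA and JNJ differed in APELA by 0.22 (-0.54 to 0.99), where 0.00720% were called. Matched doses are not given in the labels, and a p above the threshold does not show that the compounds act alike.

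Genes induced by low oxygen, among which APLN is counted in many tissues, were followed beside it. With JNJ+CHIR at 24 h 6 of 13 hypoxia-induced genes were higher than with CHIR and 0 lower, where 0.154% of all genes were called. APLN itself did not pass there. The median log2 difference of the 13 was 0.89, against -0.003 over all genes. BNIP3, a mitophagy receptor, rose by 1.198 ± 0.13 to 719 CPM (edgeR adjusted p = 0.000279), and SLC2A1, a glucose transporter, rose by 0.82 ± 0.11 to 321 CPM (0.0025). At 6 h 2 of the 13 were higher with JNJ+CHIR than with CHIR, with a median of 0.38, where 0.0202% of all genes were called. APLN stood there at 0.254 CPM against 1.15 CPM, which did not pass (edgeR adjusted p = 0.986). With AA+CHIR at 24 h, where APLN was highest, 0 of 13 were higher and 1 lower than with CHIR, beside 2.86% of all genes called. BNIP3 stood there at 243 CPM against 313 CPM with CHIR. The part of the hypoxia-induced genes in the APLN levels was not tested.

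BRD without CHIR gave the highest APELA levels. The libraries held 72.9 and 94.97 CPM at 6 h and 186 and 141 CPM at 24 h, all above the untreated libraries at 6 h. BRD+CHIR was lower than BRD alone by 2.39 ± 0.21 on the log2 scale at 6 h (edgeR adjusted p = 3.16e-08) and by 5.32 ± 0.42 at 24 h (1.01e-07). These contrasts cross the title numbers and called 53.9% and 35.5% of all genes. BRD alone exceeded untreated cells by 1.52 ± 0.21 at 6 h (5.42e-06) in a contrast that called 54.1% of genes. APLNR was higher with BRD+CHIR than with BRD alone at 24 h by 8.47 ± 0.70 (8.16e-08), against 1 count over the BRD alone group, and by 10.6 without the BRD alone library that held it.

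From 6 h to 24 h APLNR rose and APELA fell in every group given CHIR. APLNR rose by 5.89 ± 0.62 on the log2 scale with CHIR (edgeR adjusted p = 5.37e-07, from 3 counts over the group), by 7.71 ± 0.72 with BRD+CHIR (1.2e-07, from 1 count, and by 10.3 without the library that held it), and at least 715-fold with AA+CHIR and 59.8-fold with JNJ+CHIR. APELA fell by 2.22 ± 0.37 with CHIR (7.35e-05), by 2.01 ± 0.37 with BRD+CHIR (0.000216) and by 1.85 ± 0.35 with JNJ+CHIR (0.0003). The fall with JNJ+CHIR rests on 24 h libraries that stood apart, and it was -2.96 without the first and -1.24 without the second, each still called. With AA+CHIR APELA was at least 164-fold lower (1.82e-08). APLN was at least 65.2-fold higher at 24 h with AA+CHIR (1.92e-05) and rose by 4.13 ± 0.98 with JNJ+CHIR (0.00204), or by 4.74 without the second 6 h library. With CHIR and BRD+CHIR its changes, -0.89 ± 0.85 and 1.27 ± 0.85, did not pass. With BRD alone APELA was higher at 24 h by 0.94 ± 0.32, which did not pass (edgeR adjusted p = 0.0617, with 12.9% of genes called), while DESeq2 gave 0.0291 and limma-voom 0.000866. In the groups given CHIR the share of genes called was 37.9% with CHIR, 42.2% with AA+CHIR, 37.4% with BRD+CHIR and 41.1% with JNJ+CHIR.

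In sorted endoderm at 72 h the receptor was low in all arms. APLNR stood at 4.84 and 6.39 CPM with AA, 8.39 and 5.60 CPM with BRD, 3.84 and 4.17 CPM with JNJ, and 6.91 and 3.998 CPM with BRD+LoAA. The AA and BRD libraries overlapped, and the log2 differences from AA were 0.31 with BRD (95% interval -0.63 to 1.25), -0.49 with JNJ (-1.46 to 0.48) and -0.02 with BRD+LoAA (-0.98 to 0.94). In the AA arm the receptor was lower by 4.22 ± 0.44 on the log2 scale than at 24 h (edgeR adjusted p = 3.04e-08, with 44.8% of genes called). APLN there was lower by 6.63 ± 1.39 (0.000363), from 1 count over the 72 h group. Without the second 72 h library, which held that count, the difference was -10.2, and without the first it was -5.42, each still called. In the JNJ arm APLN was at least 20.3-fold lower at 72 h than at 24 h (0.000347, with 44.2% called). In the BRD arm APLNR did not change past the threshold (-0.26 ± 0.40) and APELA rose by 1.63 ± 0.38 (0.00102, with 44.3% called). These contrasts also set sorted against unsorted cells. APLN had 0 to 4 counts per library at 72 h and was not tested between the 72 h arms.

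APELA separated the arms at 72 h. Both AA libraries had 0 counts, out of 12.0 M. BRD libraries held 11.6 and 13.8 CPM, JNJ libraries 8.90 and 9.24 CPM, and BRD+LoAA libraries 13.1 and 7.82 CPM. Relative to AA it was at least 51.7-fold higher with BRD (edgeR adjusted p = 1.1e-05), at least 36.8-fold with JNJ (2.69e-05) and at least 43.2-fold with BRD+LoAA (1.87e-05). In each comparison 1 of the 2 members tested was called, where 21.3%, 18.5% and 19.4% of the 13889 genes tested were, and the 3 comparisons share the AA libraries. With AA 48 genes were listed at 0 in both libraries while at 2 CPM or more with BRD, and 30 were so in the other direction.

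Cell type markers were set beside APELA at 72 h. The summed level of 8 definitive endoderm markers was 4998 to 5575 CPM with AA and 778 to 961 CPM over the 3 compound arms. CER1, a secreted antagonist, made up most of it (4059 CPM with AA and 67.8 to 97.6 CPM in the compound arms). SOX2 stood at 1.47 CPM with AA and 18.2 to 24.7 CPM in the compound arms, and POU5F1, another pluripotency factor, at 57.9 CPM and 117 to 149 CPM. The summed level of 8 pluripotency markers was 3491 to 3525 CPM with AA and 3340 to 4081 CPM with BRD. It was 3430 to 3699 CPM with BRD+LoAA and 3635 to 4120 CPM with JNJ, so only JNJ lay wholly above AA. Against AA, of 10 pluripotency genes 3 were higher and 2 lower with BRD, 3 and 1 with JNJ, 4 and 1 with BRD+LoAA. Of all genes 21.3%, 18.5% and 19.4% were called there. Summed markers of amnion and surface ectoderm, 5 of 7 in the table, were 31.8 to 41.0 CPM with AA and 120.5 to 159.3 CPM with the compounds. Of these 5, 2 were at 0 counts with BRD and with BRD+LoAA, 1 with JNJ and 0 with AA, so the set did not move as a whole. The part of these markers in the APELA difference was not tested.

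Levels were compared between the members only per kilobase of the longest annotated transcript. In untreated cells at 6 h APELA was at 11.6 ± 0.59 CPM per kb (SD, n = 2 libraries), APLN at 0.13 ± 0.11 and APLNR at 0.013 ± 0.018. With AA+CHIR at 24 h the order turned, with APLNR at 28.7 ± 4.88, APLN at 2.96 ± 0.091 and APELA at 0. With CHIR at 24 h APLNR was at 2.11 ± 0.54, APELA at 1.15 ± 0.042 and APLN at 0.19 ± 0.0034. At 72 h APELA exceeded APLNR per kb with BRD (4.86 ± 0.60 against 1.94 ± 0.55) and JNJ (3.49 ± 0.095 against 1.11 ± 0.064). Per kb of coding sequence APELA exceeded APLNR with CHIR at 24 h as well, at 18.1 against 6.67 CPM per kb.

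Ordered by level, APLNR in AA+CHIR at 24 h (103.5 ± 17.6 CPM) stood apart from 8.31 ± 2.45 CPM with BRD+CHIR. The next 6 groups, down to 4.002 CPM with JNJ at 72 h, differed from their neighbours by less than their spread. For APELA the order ran from BRD alone at 24 h and 6 h (163.5 ± 32.0 and 83.9 ± 15.6 CPM) to untreated cells (30.1 ± 1.55 CPM). JNJ+CHIR, BRD+CHIR and CHIR at 6 h followed at 18.5 ± 1.96, 16.6 ± 2.29 and 14.1 ± 2.48 CPM, where neighbours did not differ beyond their spread.

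Over the 15 group means, APLNR and APELA ran against each other (Pearson r = -0.76, Spearman rho = -0.77 on log2 CPM). APLN and APLNR had r = 0.34. These are descriptions over groups that share time points and title numbers. APLNR had 3 counts or fewer over each 6 h group and over BRD alone at 24 h, so its order among those groups is not resolved. The 5 genes most like APLNR were INF2, FBRS, CAMKK2, ZMIZ1 and B4GALNT3 (r from 0.976 to 0.968, of 12873 genes with at least 5 CPM in a group). CAMKK2, a calcium-dependent kinase, stood at 147 CPM with AA+CHIR at 24 h, 87.2 CPM with CHIR and 17.8 CPM in untreated cells. Those most like APELA were PDGFA (r = 0.97), PPP2R2B, SPTSSB, GDPD2 and PDPN (down to 0.92). PDGFA, a growth factor ligand, stood at 177 CPM with BRD alone at 24 h, 131 CPM in untreated cells, 13.4 CPM with AA+CHIR at 24 h and 7.17 CPM with AA at 72 h. Those most like APLN, at r of 0.86 to 0.83, were TTLL7, SLC25A32, LHFPL4, LIPA and PHACTR1. The lists depended on the measure. By Spearman rho only ZMIZ1 stayed among the 5 for APLNR, PDGFA for APELA and LHFPL4 for APLN. By Pearson r over 30 libraries none stayed for APLN, where CALU and WNT5A led. By that measure all but ZMIZ1 stayed for APLNR, and all but PPP2R2B and SPTSSB for APELA.

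Enzymes that cut or degrade the peptides were followed beside the ligands. Of 6 genes (FURIN, PCSK1, PCSK5, PCSK6, PCSK7 and MME) 0 passed the edgeR, DESeq2 or limma-voom test in AA+CHIR against CHIR at 24 h, and 0 had an unadjusted edgeR p under 0.05. Of all genes tested, edgeR called 2.86% there. The median log2 difference was 0.027 against 0.0 over all genes. FURIN, a proprotein convertase known to process the Elabela precursor, stood at 28.7 CPM with AA+CHIR and 27.7 CPM with CHIR at 24 h. At 6 h it rose by 0.92 ± 0.19 on the log2 scale with AA+CHIR (edgeR adjusted p = 0.02). PCSK1, a convertase of secretory granules, stood at 1.54 CPM in untreated cells and 5.504 CPM with CHIR at 6 h, a rise of 1.82 ± 0.45 (0.0342), and at 20.4 CPM in both AA+CHIR and CHIR at 24 h. At 72 h, of 5 tested, 1 was higher and 1 lower in every compound arm than with AA, where 21.3%, 18.5% and 19.4% of all genes were called with BRD, JNJ and BRD+LoAA: FURIN rose by 0.69 to 0.89 and MME, neprilysin, which degrades apelin peptides, fell by 2.11 to 2.41.

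Signalling partners of the receptor gave a like picture. Of 16 genes for G proteins, arrestins, receptor kinases and RGS proteins, 0 passed the edgeR test in AA+CHIR against CHIR at 24 h, where the receptor itself rose. With 2.86% of all genes called there, few calls among 16 genes would be looked for. Unadjusted, 3 had an edgeR p under 0.05, as had 2080 of all 15586 genes tested, and DESeq2 called 1 and limma-voom 0. At 6 h GNAI1, an inhibitory G protein subunit, rose by 1.15 ± 0.19 on the log2 scale with CHIR over untreated cells (edgeR adjusted p = 0.00136). It was 1 of 15 tested, where 2.96% of all genes were called. At 72 h 1 was higher and 5 lower of 15 tested in BRD against AA endoderm, 2 and 4 in JNJ, and 1 and 6 in BRD+LoAA, beside 21.3%, 18.5% and 19.4% of all genes. RGS5, a brake on G protein signalling, rose by 1.88 to 2.11 in the 3 arms, and GNAZ, another inhibitory subunit, fell by 1.78 to 2.10.

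The receptor kept company with mesendoderm genes at 24 h. Of 13 mesendoderm factors tested, 9 were higher and 1 lower with AA+CHIR than with CHIR, with a median log2 difference of 1.55, where 2.86% of all genes were called. CER1 rose by 3.74 ± 0.18 to 1232 CPM (edgeR adjusted p = 3.33e-09) and GATA6, an endoderm and mesoderm factor, by 3.09 ± 0.21 to 168 CPM (1.35e-07). Of 10 pluripotency genes 0 were higher and 4 lower. Endothelial genes gave 0 calls of 8 tested with edgeR, DESeq2 or limma-voom and 1 unadjusted edgeR p under 0.05, and their marker sum at 24 h was 20.2 to 21.4 CPM with AA+CHIR and 29.3 to 31.6 CPM with CHIR. Of the 14 other ligand and receptor genes of gastrulating cells tested, 2 were higher and 3 lower, beside the same 2.86%.

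Single cells showed which cells held the transcripts. Each condition had 1 library, so there is no test, and the intervals given, exact Poisson for levels and exact binomial for shares, cover counting error only. The protocol aimed at 1000 to 5000 cells per channel, and the matrices hold 6244, 6321 and 6266 barcodes. Limits of 500 genes detected and 10% mitochondrial transcripts left 4193 cells at 36 h, 4511 of 72 h endoderm and 5632 of 72 h mesoderm. Pairs of libraries shared 50 to 56 cell barcodes, under 1% of a library. The 36 h library stood apart from the bulk AA libraries at 24 h: CER1 was at 139 CPM (here of UMIs, or unique molecules), SOX2 at 48.3 and NODAL at 237, against 1232, 7.54 and 190 CPM in bulk AA+CHIR. The methods and times differ, the labels give both the same agents on the first day, and the cause was not tested.

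APLNR stood at 8.69 CPM at 36 h (671 UMIs, 95% interval 8.05 to 9.37), 4.32 CPM in 72 h endoderm (3.65 to 5.08) and 121 CPM in 72 h mesoderm (118 to 124). With each cell thinned to 2000 UMIs, which left out 777, 826 and 93 cells, 1.58%, 0.868% and 20.65% of cells held a receptor UMI. Without thinning the shares were 6.03%, 2.75% and 47.6%, at median depths of 21152, 7680 and 7873.5 UMIs. The mesoderm library was highest on every measure.

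APELA stood at 20.8 CPM at 36 h (1607 UMIs, 19.8 to 21.9), 1.69 CPM in endoderm (57 UMIs, 1.28 to 2.19) and 4.12 CPM in mesoderm (186 UMIs, 3.55 to 4.76). After thinning 4.74%, 0.271% and 0.722% of cells held an APELA UMI. In bulk, both AA groups at 24 h and 72 h were at 0 counts, so the single-cell libraries of the AA protocol held APELA where the bulk libraries listed none. All 10 thinned endoderm cells with an APELA UMI lay in cluster 4, described below, which had 441 thinned cells. APLN had 4 UMIs at 36 h, 1 in endoderm and 40 in mesoderm (0.887 CPM, 0.634 to 1.21).

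**Figure D3:**
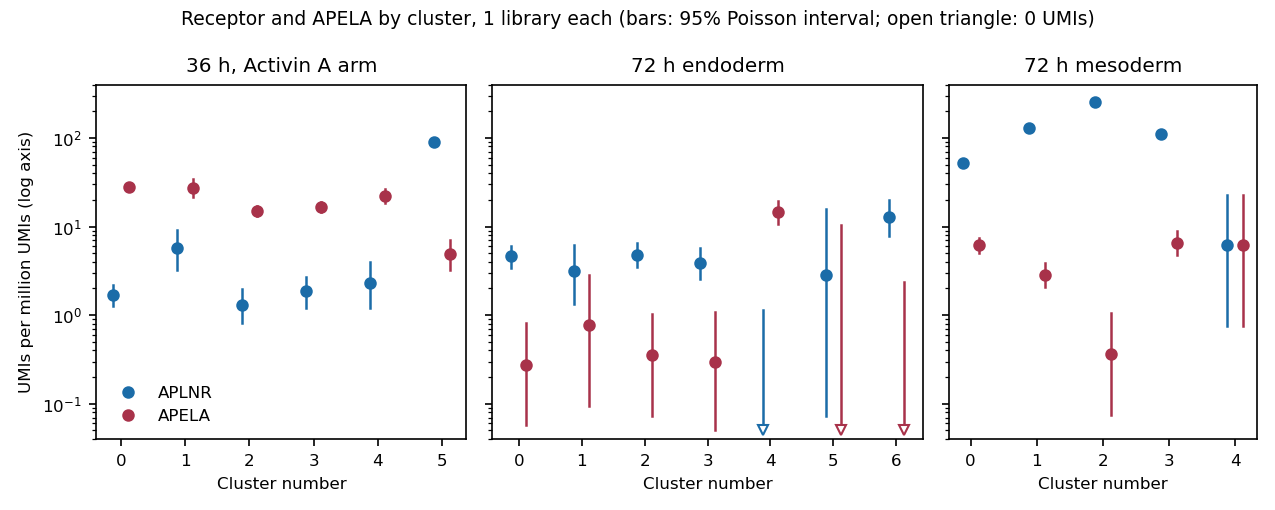
CPM (of UMIs) of APLNR and APELA in each cluster of the 3 single-cell libraries, on a log axis, with 95% Poisson intervals that cover counting error only. Open triangles mark 0 UMIs. APLNR is concentrated in cluster 5 at 36 h (90.6 CPM) and cluster 2 of mesoderm (255 CPM), where APELA is at 4.86 and 0.366 CPM.

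Clusters were made without the 3 members among the genes that define them. They are given by number and leading genes, and the values within them are descriptions. At 36 h cluster 5, led by DKK1, DKK4, CER1, LHX1 and CYP26A1, held 234 cells, 5.58% of the library. It carried 541 of the 671 receptor UMIs, at 90.6 CPM (83.2 to 98.6), against 1.30 to 5.65 CPM in the other 5 clusters. After thinning 17.3% of its cells held a receptor UMI (12.7 to 22.8%), against 0.613% in cluster 0 at a similar median depth (24937 and 24770 UMIs). CER1 in that cluster was at 1232 CPM and SOX2 at 10.2 CPM, against 39.3 and 49.9 CPM in cluster 0. Cluster 1, led by UPF2, had a median of 1787 UMIs, and 450 of its 1089 cells were deep enough to thin.

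APELA at 36 h was lowest where the receptor was highest. It stood at 4.86 CPM in cluster 5 (3.25 to 6.98) and at 15.1 to 27.8 CPM in the other clusters. Cluster 0, led by HIST1H4C, LEFTY2 and DNA replication genes, was at 27.8 CPM (26.0 to 29.7), and cluster 1 at 27.2 CPM (21.5 to 33.98), so the intervals overlapped. Among thinned cells 9.64% of the 280 with a SOX2 UMI held APELA (6.45 to 13.7%) and 4.31% of the 3136 without (3.62 to 5.07%). For CER1 the shares were 2.23% with and 5.12% without.

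For APLNR the same split was 9.58% of 449 cells with a CER1 UMI and 0.371% of 2967 without. It was 21.0% of 81 cells with LHX1, a homeobox factor, and 1.11% without. Of 280 cells with SOX2, 0 held APLNR, against 1.72% without. CER1 and LHX1 also lead cluster 5, so these splits restate in part where the receptor lay.

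In 72 h endoderm APELA lay mostly in 1 cluster. Cluster 4, led by FOXD3-AS1, TAGLN and MT1X, held 554 cells and 47 of the 57 APELA UMIs, at 14.6 CPM (10.7 to 19.4), and the other 6 clusters were at 0 to 0.778 CPM. APLNR had 0 UMIs there. With 0 of 441 thinned cells, the binomial interval allows up to 0.833% of cells with a UMI at this depth, and it sets no limit on how many express the gene. In that cluster SOX2 was at 46.95 CPM, POU5F1 at 794 and SOX17 at 9.95, against 2.12, 326 and 148 CPM in cluster 0. Its median depth was 3282 UMIs, below the 7680 of the library. APLNR was at 2.84 to 12.8 CPM in the other clusters. Cluster 6, led by GYPB and GYPE, stood at 12.8 CPM (7.80 to 19.7), and its interval overlapped that of cluster 5, which held 1 receptor UMI.

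In 72 h mesoderm APLNR was widespread and uneven. Cluster 2, led by IFT57, NTS, SSTR2, CXCR4 and TBX6 besides the receptor itself, stood at 255 CPM (244 to 266), with 39.2% of thinned cells holding a receptor UMI. Clusters 0, 1 and 3 stood at 51.5, 128 and 110 CPM, and cluster 4, with 118 cells at a median of 2094 UMIs, at 6.24 CPM (2 UMIs). APELA was at 0.366 CPM in cluster 2 (0.0755 to 1.07), 2.87 CPM in cluster 1 (2.06 to 3.90), 6.15 CPM in cluster 0 (4.98 to 7.51), 6.57 CPM in cluster 3 (4.77 to 8.82) and 6.24 CPM in cluster 4 (2 UMIs). It was lowest where the receptor was highest, and by these values cluster 1 came next on both. The APELA intervals of clusters 0, 3 and 4 overlapped, so no order among these can be read. That of cluster 4 (0.756 to 22.5 CPM) also took in cluster 1. The share with APLNR was 31.0% of cells with TBX6, a paraxial mesoderm factor, and 18.8% without. It was 37.3% with PDGFRA and 19.9% without, and 31.6% with CXCR4, a chemokine receptor, and 19.2% without.

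**Figure D4:**
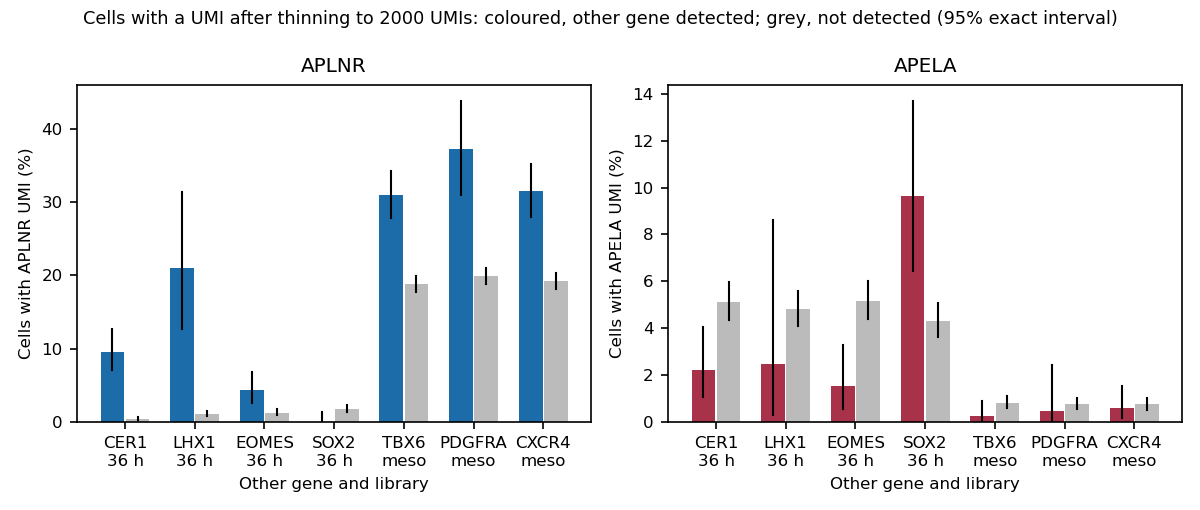
Shares of cells with an APLNR (left) or APELA (right) UMI after thinning to 2000 UMIs, split by a UMI of another gene (coloured, detected; grey, not detected), in the 36 h and 72 h mesoderm libraries. Black lines are exact 95% binomial intervals. APLNR is more frequent beside CER1 (9.58% against 0.371%) and LHX1, and APELA beside SOX2 (9.64% against 4.31%).

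Receptor and ligand were seldom counted in 1 cell. Of 3416 thinned cells at 36 h, 52 held the receptor alone, 160 APELA alone and 2 both. In endoderm 32 cells held the receptor, 10 APELA, 1 APLN and 0 a pair. In mesoderm 1138 of 5539 cells held the receptor alone, 37 APELA alone, 7 APLN alone, 3 the receptor with APELA and 3 the receptor with APLN. Shares of cells with a receptor UMI were 6.03% unthinned and 1.58% thinned at 36 h, so at 2000 UMIs a transcript often went uncounted, and the counts set no limit on how many cells make both. With 1.58% of thinned cells holding the receptor and 4.74% APELA at 36 h, few pairs would be looked for if the genes were unrelated. The number of pairs expected without a link was not computed for any library, so the counts do not show that receptor and ligand keep apart.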

How the data were processed

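Bulk RNA-seq was deposited per gene in expected counts, with fractional values, which the authors made with tools not tied to steps in the sources used here; the submitters' processing notes list Salmon 1.4.0, limma 3.48.1, edgeR 3.34.0 and Seurat 4.0.2 on GRCh38. For single cells the authors deposited matrices of UMI counts from Cell Ranger 3.0.2, per the file headers. Per the labels' protocols, bulk libraries came from a stranded kit for total RNA and single cells from droplet 3' kits after a sort whose gate is not given in the sources used here.

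Expected counts were rounded and tested with edgeR 4.0.16 in R 4.3.3 (filterByExpr, TMM, two-sided quasi-likelihood F-test), in 1 fit per time point, 1 over 6 h and 24 h, and 1 over all 30 libraries for 72 h against 24 h. Residual degrees of freedom were 6, 5 and 4 at 6 h, 24 h and 72 h, and 11 and 15 in the joint fits. A gene was called where its Benjamini-Hochberg adjusted p over all genes tested was under 0.05, and 33 comparisons were made. Standard errors are the log2 difference over the root of F. CPM use TMM factors. A group at 0 counts was bounded by a floor of 3 counts over the group, in CPM. On simulated data with changed genes the test recovered 75% of 2-fold changes in AA+CHIR against CHIR at 6 h (14874 genes), 44% at 24 h (15586 genes), and 73% in BRD against AA endoderm at 72 h (13889 genes), and 98%, 83% and 99% of 4-fold changes. The false share of calls was 7.49%, 8.63% and 6.52%. The changed genes were drawn only from well-counted genes, so the recovery does not hold for members at low counts, such as APLN at 6 h.

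Single cells were handled with scanpy 1.11.5 (2000 variable genes without the 3 members, 30 components, 15 neighbours, Leiden resolution 0.5, seed 0). Doublets were not removed. Sequences came from GENCODE and RefSeq tables; both ligand promoters matched, and the receptor's was not in the table used.

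The members and the 7 further gene lists were chosen with earlier results of these data known, and 1 gene of the lists is not reported here. Named were the members in every sample, per list up to 4 called genes with the smallest p and a mean of 5 CPM or more in 1 of the groups, and the 5 genes most like each member over the 15 group means; other genes of the lists are named for their levels or after their values were seen. Replicate numbers are shared across groups, but same-numbered libraries did not deviate together (correlations of -0.207 to 0.183 over 31 pairs of groups, 1 above 0.1), so libraries were not paired. Alternatives tried were DESeq2 1.42.0 (size factors or test), limma-voom 3.58.1, no filter, 1 fit over all libraries, no BRD alone libraries, each library left out, a replicate block, other likeness measures, all barcodes, other thinning depths, a Leiden resolution of 1.0 and coding length.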

Additional observations from a re-analysis of the deposited data

Results flagged for a closer look

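The effect of AA over CHIR differed between 6 h and 24 h for both ligands, by a test of the difference itself. For APLN the log2 effect at 24 h exceeded that at 6 h by 11.32 ± 1.85 (edgeR adjusted p = 0.00124), with both AA+CHIR libraries below both CHIR libraries at 6 h (0 and 0 against 24 and 4 counts) and above them at 24 h. For APELA the difference was -8.15 ± 1.27 (0.000871), lower in both libraries at both times. Over the alternatives the adjusted p ran from 9.03e-06 to 0.0185 for APLN and from 1.62e-05 to 0.205 for APELA, the largest being from limma-voom.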

How the results depend on the processing

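Of 82 results over the members, 32 were called, and 25 of these kept their call under every alternative run; no called result reversed. The 7 called results that lost their call under an alternative are given here. For APELA, limma-voom gave -7.34 (adjusted p = 0.13) for AA+CHIR against CHIR at 24 h, 7.82 (0.128) for BRD+CHIR against AA+CHIR, 7.92 (0.0723) for JNJ+CHIR against AA+CHIR and -6.65 (0.205) for the effect of AA at 24 h less that at 6 h. In 1 fit over all 30 libraries APELA gave -1.09 (edgeR adjusted p = 0.174) for CHIR against untreated cells at 6 h, and leaving out 1 library gave -1.28 to -0.94. Leaving out 1 library gave 3.91 to 3.97 for APLN in AA+CHIR against CHIR at 24 h. APELA in JNJ+CHIR against AA+CHIR at 6 h lost its call with limma-voom (adjusted p = 0.0904), the block (edgeR 0.0556), no BRD alone libraries (0.0619), 1 fit over all libraries (0.376) and 3 of 4 libraries left out (up to 0.233). The 8 results that DESeq2 called and edgeR did not were APLN in AA+CHIR against CHIR at 6 h (-6.001), JNJ+CHIR against CHIR at 24 h (2.89), BRD+CHIR against AA+CHIR at 24 h (-2.43), its JNJ effect at 24 h less that at 6 h (5.08) and its change from 24 h to 72 h in the BRD arm (-2.66), APELA in BRD+CHIR against AA+CHIR at 6 h (0.85) and from 6 h to 24 h with BRD alone (0.95), and APLNR for the effect of AA at 24 h less that at 6 h (6.55). In the JNJ arm APLNR and APELA from 24 h to 72 h were called without the first 24 h library (-1.32 and 1.93).

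Other results changed sign and were not called on either side. APLNR in JNJ+CHIR against CHIR at 24 h was 0.0043 with DESeq2, 0.0032 with its size factors and 0.028 with a replicate block, and in BRD+LoAA against AA endoderm it was 0.010 with limma-voom. With 1 library left out APLNR ran from -0.55 to 0.39 in JNJ+CHIR against CHIR, -0.22 to 0.42 in BRD+CHIR against CHIR and -0.26 to 0.68 in BRD+CHIR against JNJ+CHIR at 24 h, -0.47 to 0.32 in BRD+LoAA against AA endoderm, and -0.58 to 0.081 from 24 h to 72 h in the BRD arm. APELA ran from -0.32 to 1.39 in JNJ+CHIR against CHIR and -0.93 to 0.78 in BRD+CHIR against JNJ+CHIR at 24 h, -0.74 to 0.98 in the JNJ effect at 24 h less that at 6 h, -0.68 to 0.040 in BRD+LoAA against BRD endoderm, and -0.20 to 0.53 against JNJ endoderm. APLN ran from -1.66 to 0.90 from 6 h to 24 h with CHIR, -1.42 to 1.13 in BRD+CHIR against CHIR and -0.30 to 2.68 in CHIR against untreated cells at 6 h. Where 1 library of a group was left out, the lone library is assumed to vary like the other groups. The causes were not tested.

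With the replicate number as a block, APLNR in AA+CHIR against CHIR at 24 h was 3.76 (edgeR adjusted p = 5.62e-06) and APLN 3.94 (0.0173). The only call the block changed was APELA in JNJ+CHIR against AA+CHIR at 6 h, given above. Counts of genes called over all settings ran from 203 to 1157 for AA+CHIR against CHIR at 24 h (445 in the fit reported), 186 to 576 for CHIR against untreated cells (441), 65 to 295 for AA+CHIR against CHIR at 6 h (222), 11 to 286 for JNJ+CHIR against CHIR at 24 h (24), 0 to 26 for BRD+CHIR against CHIR at 24 h (0) and 1607 to 2955 for BRD against AA endoderm (2954). Of 45 alternatives for single-cell values 25 moved by more than the counting interval. All of these were shares of cells, which depend on depth, and 0 of the 9 alternatives for CPM moved. Low counts limit APLNR at 6 h, APLN at 6 h and 72 h, and APLN in all single-cell libraries.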

Other observations

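Another ligand and receptor pair of gastrulating cells was split in a like way. PDGFRA, a receptor of early mesoderm, stood at 89.5 CPM with AA+CHIR at 24 h and 0.0889 CPM with CHIR, and its ligand PDGFA at 13.4 and 40.7 CPM. In 72 h endoderm PDGFA was higher than with AA by 3.16 on the log2 scale with BRD, 3.20 with JNJ and 2.98 with BRD+LoAA, while PDGFRA stood at 25.0 CPM with AA and 16.1 to 19.8 CPM in the compound arms. The pair was chosen after its values were seen, and no test of the likeness was made.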
